A study of Mus musculus with 4 samples.

Results

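The genes described here are 10 transcription factors of the mammary epithelium: the basal regulators Trp63 and Snai2, the SOX genes Sox4, Sox9 and Sox10, and the Iroquois (IRX) genes Irx1, Irx2, Irx3, Irx4 and Irx5. They were chosen by name, and all 10 were found among the 27998 genes that each count table lists. Their RNA was measured by droplet single-cell RNA sequencing (10x Genomics Chromium, 3′ chemistry) in mammary epithelial cells of female FVB/NJ mice, sorted as CD24+ cells without blood, endothelial or erythroid surface markers. Pubertal glands were taken at 5 weeks of age, and adult glands at 10 weeks from mice staged by vaginal cytology in estrus or in diestrus. The animals were untreated and carried no labelled allele. The cells of each adult phase came from 2 mice. Each stage gave 1 library, so stages could be described but not tested, whereas lineages were tested over the 3 libraries. The fit took out differences that all lineages of a library share. P-values for lineages therefore measure how far a lineage difference varied between libraries. Each library holds a different stage and pool of mice, so these 2 parts of that spread cannot be told apart.

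The mammary duct is a bilayer. Outer basal (myoepithelial) cells contract and touch the basement membrane, and inner luminal cells comprise luminal progenitors (LP), which are the main source of milk-secreting alveolar cells, and mature luminal (ML) cells, many of which carry hormone receptors. Trp63 encodes p63, the p53 relative that maintains the basal layer of stratified and glandular epithelia. Snai2 encodes the zinc finger repressor SLUG, a member of the SNAIL family that drives epithelial-mesenchymal transition (EMT). SOX proteins bind DNA through an HMG box: SOX9 acts in progenitors of many epithelia and in cartilage, SOX10 in neural crest, glia and glandular epithelia, and SOX4 in embryonic and progenitor cells. IRX proteins are homeodomain factors that pattern embryonic tissues, and their genes lie in conserved clusters.

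All 10 identifiers were found in the GENCODE M21 annotation of the mouse assembly GRCm38. Trp63 lies on chromosome 16 (chr16:25683763-25892102, plus strand), as does Snai2 (chr16:14705852-14709385, plus). Sox4 lies at chr13:28948919-28953713 (minus), Sox9 at chr11:112782224-112787760 (plus) and Sox10 at chr15:79154908-79165240 (minus). The first Iroquois cluster is on chromosome 13, with Irx1 at chr13:71957921-71963723 (minus), Irx2 at chr13:72628820-72634198 (plus) and Irx4 at chr13:73260479-73269608 (plus). Irx1 and Irx2 are 665.1 kb apart and Irx2 and Irx4 626.3 kb, with 0 other protein-coding genes in either gap. The second cluster is on chromosome 8, where Irx3 (chr8:91798525-91802067, minus) and Irx5 (chr8:92357625-92376286, plus) are 555.6 kb apart, again with 0 protein-coding genes between them. Irx3 overlaps the antisense RNA gene Irx3os, with 13 counts among basal, 60 among LP and 164 among ML cells, and Sox4 overlaps the lincRNA gene Gm26735, which had 25 counts in all. Use of read strand in the counting was not given in the sources used here, so reads of such overlapping pairs may have been shared.

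Irx2 and Irx4 are neighbours in 1 cluster but had unlike lineage patterns, described below, and the sequences before their starts are therefore shown. Both are RefSeq windows on GRCm38.p6, plus strand, 230 bases long, with CpG dinucleotides in capitals. They run from base -250 to base -21 relative to the RefSeq start, which for Irx4 lies downstream of the GENCODE start given above. RefSeq windows were matched for 4 of the 10 genes.
Irx2 (chr13:72628570-72628799): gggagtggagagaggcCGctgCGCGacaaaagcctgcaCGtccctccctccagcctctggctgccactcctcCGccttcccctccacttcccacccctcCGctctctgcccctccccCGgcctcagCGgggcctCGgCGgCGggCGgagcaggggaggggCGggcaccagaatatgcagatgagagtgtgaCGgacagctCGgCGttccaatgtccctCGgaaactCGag
Irx4 (chr13:73260247-73260476): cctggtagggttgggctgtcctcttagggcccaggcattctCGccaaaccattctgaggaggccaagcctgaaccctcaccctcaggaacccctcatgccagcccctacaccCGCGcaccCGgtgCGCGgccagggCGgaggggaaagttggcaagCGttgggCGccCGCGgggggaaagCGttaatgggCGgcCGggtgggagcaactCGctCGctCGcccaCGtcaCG
The Irx2 window held 18 CpG at a G+C content of 69.1%, and the Irx4 window held 19 at 67.8%. The median over 32851 such windows was 5, and 17.8% of windows held at least as many as Irx2 and 16.1% as many as Irx4. Neither window held the E-box letters CACCTG or CAGGTG, which SNAIL proteins bind, nor the SOX letters AACAAT or ATTGTT, on either strand. The E-box letters were present in 16.0% of all windows and the SOX letters in 8.98%, so that their absence from these windows says nothing of the factors.

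The puberty library held 5428 cells and 25365324 counts (median 4103 per cell), the estrus library 2729 cells and 10962454 counts (median 3236) and the diestrus library 2439 cells and 11868593 counts (median 3974). A second puberty table shared 5387 of its barcodes with the first and is used below as a repeat count of the same cells. Other pairs of tables shared at most 24 barcodes. Cells were named basal-like, LP-like or ML-like (basal, LP and ML from here on) from 10 marker genes per lineage that exclude all genes described here. Basal cells numbered 995, 1292 and 1023 in puberty, estrus and diestrus, LP cells 1820, 498 and 573, and ML cells 2134, 782 and 685. Each of the 30 markers was detected in a larger share of its own class than of the others, which follows from naming cells by these markers. Leiden clusters were built without the described genes but were named by the same marker scores. They gave the same class to 98.79% of basal, 97.03% of LP and 97.75% of ML cells, which is not an independent check of the names. A further 351 cells scored between LP and ML (LP-ML cells), and 101 scored as both basal and luminal (mixed cells). Of the 10596 cells, 364 lay within 0.1 of a class boundary. Different clusters held most of a class at different stages: cluster 1 held 85.7% of basal cells in estrus, where clusters 4 and 5 held most in puberty and clusters 1, 4 and 5 between 29.1% and 35.9% each in diestrus. LP cells were mostly cluster 3 in puberty but cluster 2 in the adult, and ML cluster 7 held 45.0% of ML cells in diestrus and 16.1% in puberty but no ML cell of estrus.

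Levels are given as CPM (counts of a gene per 1000000 counts), taken over all cells of a class in a library. Values are given in the order puberty, estrus, diestrus unless stated, and 95% intervals are exact and cover counting error only.

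Trp63, Snai2 and Irx4 were the 3 genes higher in basal cells than in both luminal classes, where they had few counts or none. Trp63 stood at 68.2, 84.9 and 73.7 CPM in basal cells (75.6 ± 8.53, SD, n = 3 libraries). It stood at 0.755, 0.970 and 0.713 CPM in LP cells, from 6, 2 and 2 counts, and at 0.179, 0.535 and 0.579 CPM in ML cells, from 2 counts each. The basal and luminal ranges of Trp63 did not overlap, and basal cells exceeded LP by a log2 fold change of 6.31 ± 0.25 (SE; edgeR quasi-likelihood test, Benjamini-Hochberg adjusted p = 1.44e-08) and ML by 7.65 ± 0.27 (adjusted p = 4.89e-09). Snai2 stood at 41.6, 34.6 and 29.6 CPM in basal cells (35.3 ± 6.03, SD, n = 3). In LP cells it stood at 0.755, 0.485 and 0.356 CPM, and in ML cells it had 5, 0 and 2 counts. Its log2 fold change was 5.72 ± 0.36 for basal against LP (adjusted p = 3.77e-07) and 6.55 ± 0.36 for basal against ML (adjusted p = 8.90e-08).

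Irx4, alone among the IRX genes, shared this pattern. It stood at 24.4, 61.9 and 67.9 CPM in basal cells (51.4 ± 23.5, SD, n = 3) and had 0 counts in all 2891 LP cells, whose libraries together held 12817331 counts. A count of 0 allows up to 0.234 CPM over the LP cells of the 3 libraries, taking 3 counts as the limit, and a share of up to 0.104% of cells with a count. Pooled over the 3 libraries, Irx4 was therefore at least 231-fold higher in basal than in LP cells. In single libraries the same limit was 0.377, 1.46 and 1.07 CPM, so the bound within a library is lower. The edgeR quasi-likelihood test of this difference, which does not test the bound, gave an adjusted p of 1.89e-06. This 0, and with it the bound, depends on the class rule: with classes taken from Leiden clusters, 0.0553%, 0.208% and 0.345% of LP cells had a count of Irx4, and the fitted log2 difference was 6.70 (adjusted p = 7.20e-07). ML cells had 4, 0 and 1 counts of Irx4, and basal cells exceeded them by 7.10 ± 0.41 on the log2 scale (adjusted p = 9.08e-07). LP-ML cells had 0 counts of Irx4 and of Snai2 and 2 of Trp63.

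The share of basal cells with at least 1 count of Trp63 was 13.97%, 20.1% and 25.3%, against 0.220%, 0.402% and 0.349% of LP cells, although LP cells were deeper (median 3769, 3288 and 4102 counts per cell, against 2698, 2545.5 and 3420 in basal cells). The luminal shares give the background for a count of these genes in a cell that is not basal. After each cell was thinned to 2000 counts, which left out 249, 351 and 182 shallower basal cells, the Trp63 share of basal cells was 8.58%, 13.4% and 14.1%. Thinned shares of Snai2 were 6.57%, 5.95% and 5.71% of basal cells, with intervals that overlapped in all 3 libraries. Any of Trp63, Snai2 and Irx4 was counted in 26.6%, 38.7% and 48.6% of basal cells, and in at most 0.730% of LP or ML cells in any library. These shares were not thinned, and basal cells were deepest in diestrus. In mixed cells the share was 14.04%, 27.3% and 59.1%, of 57, 22 and 22 cells with median depths from 5395.5 to 6846 counts. The part of barcodes that caught a basal and a luminal cell together in that share was not tested.

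**Figure D1:**
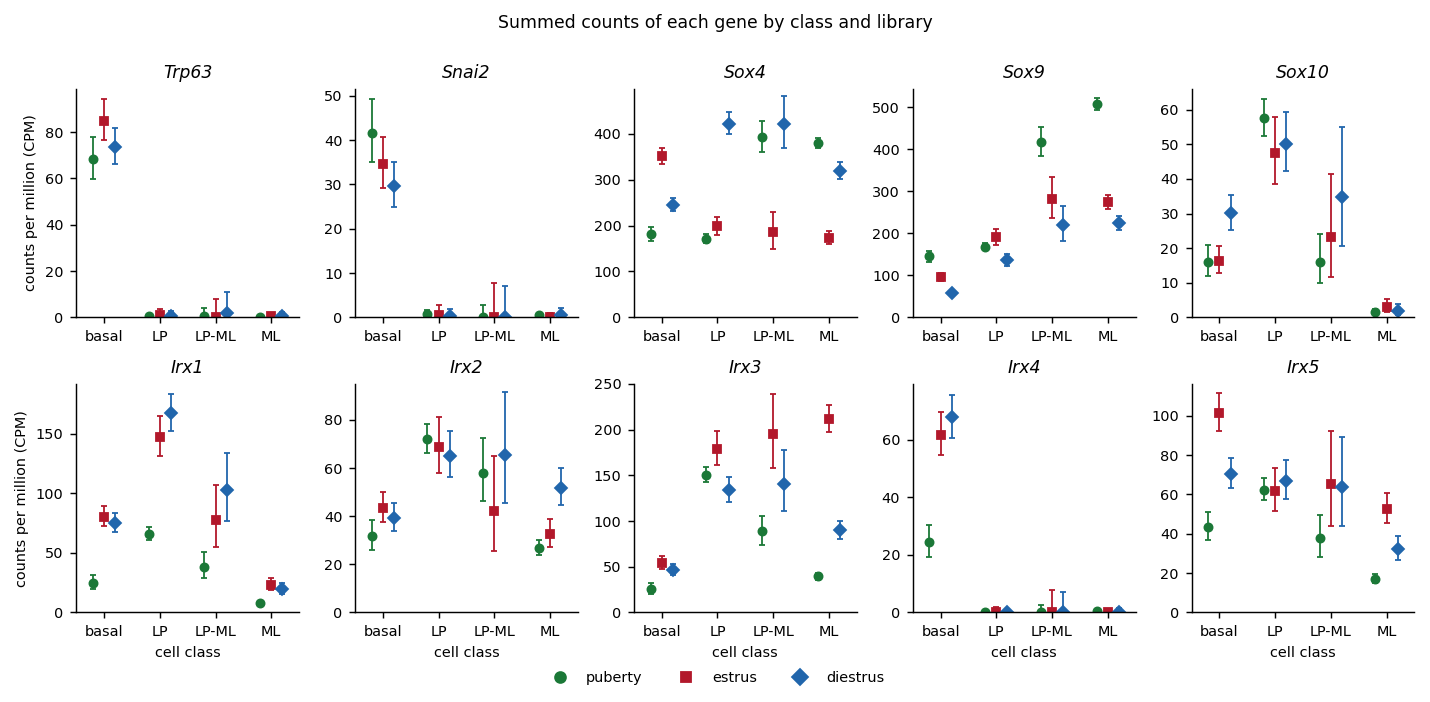
Levels of the 10 genes in CPM (vertical axis, linear, from 0) in basal, LP, LP-ML and ML cells (horizontal axis) of the puberty, estrus and diestrus libraries. Points are sums over cells and bars are exact 95% Poisson intervals; Trp63, Snai2 and Irx4 lie near 0 outside basal cells, and Sox9 reaches 508 CPM in pubertal ML cells.

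The SOX genes each had a different lineage order. Sox9 was highest in ML cells, at 508, 274 and 225 CPM (335 ± 151, SD, n = 3), against 169, 191 and 136 CPM in LP and 146, 96.0 and 58.6 CPM in basal cells. ML exceeded the other classes in each library, and the ranges of LP and basal cells overlapped. The log2 fold change was -1.76 ± 0.18 for basal against ML (adjusted p = 1.25e-05), -0.82 ± 0.18 for LP against ML (adjusted p = 0.00411) and -0.94 ± 0.18 for basal against LP (adjusted p = 0.00158). The last of these did not pass 0.01 without the estrus library (adjusted p = 0.0148) or without the diestrus library (0.0231), and the LP against ML call did not pass without puberty (0.0398) or without diestrus (0.0193), all by the same edgeR test.

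Sox10 had the opposite luminal order. It stood at 57.5, 47.5 and 50.2 CPM in LP cells (51.8 ± 5.15, SD, n = 3), at 16.0, 16.4 and 30.1 CPM in basal cells and at 1.43, 2.94 and 1.74 CPM in ML cells. No 2 of the 3 ranges overlapped. LP exceeded ML by 4.93 ± 0.34 on the log2 scale (adjusted p = 8.67e-07) and basal exceeded ML by 3.44 ± 0.35 (adjusted p = 1.13e-05), while basal against LP was -1.49 ± 0.25 (adjusted p = 0.000621). Each of these calls held when any library was left out. Cells with a Sox10 count made up 18.8%, 16.7% and 20.6% of LP cells and 4.72%, 5.11% and 11.8% of basal cells, beside 0.609%, 1.15% and 0.876% of the deeper ML cells. LP-ML cells stood between the luminal classes in every library, at 16.0, 23.1 and 34.7 CPM; their median depth was 6455, 5860 and 7197 counts, and the part of paired cells in their level was not tested. Schwann cells, which also express Sox10, were named from 5 markers: 4 such barcodes were found, all in estrus, and they had 0 counts of Sox10 among 7247 counts, too few to show a level like that of LP cells.

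Sox4, the most abundant of the SOX genes in basal cells, had no lineage order that held over stages. Its level was 181, 351 and 246 CPM for basal, 172, 198 and 423 CPM for LP and 381, 173 and 320 CPM for ML cells. All ranges overlapped, and the highest class was ML in puberty, basal in estrus and LP in diestrus. None of the 3 comparisons passed (log2 fold changes of -0.05 ± 0.34 for basal against LP, -0.16 ± 0.35 for basal against ML and -0.11 ± 0.34 for LP against ML; adjusted p = 0.918, 0.718 and 0.836).

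Of the IRX genes other than Irx4, each was measured in all 3 lineages. Irx1 stood at 65.9, 147 and 167 CPM in LP cells, at 25.1, 80.3 and 75.0 CPM in basal cells and at 7.86, 23.3 and 19.7 CPM in ML cells. LP exceeded basal and basal exceeded ML in each library, although the LP and basal ranges overlapped across stages. The log2 fold change was 3.08 ± 0.15 for LP against ML (adjusted p = 1.29e-07), 1.82 ± 0.15 for basal against ML (adjusted p = 2.55e-06) and -1.26 ± 0.14 for basal against LP (adjusted p = 3.00e-05). Without the library block, the basal against LP difference was -1.18 and did not pass (adjusted p = 0.0633). LP-ML cells again stood between, at 38.5, 77.7 and 102 CPM.

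Irx2 stood at 72.1, 68.9 and 65.2 CPM in LP cells, above 31.7, 43.4 and 39.3 CPM in basal and 26.9, 32.7 and 51.8 CPM in ML cells. The LP range overlapped neither of the others, which overlapped each other. LP against ML was 1.10 ± 0.22 (adjusted p = 0.00238) and basal against LP -1.02 ± 0.22 (adjusted p = 0.00321), and neither passed 0.01 without the puberty or without the estrus library (adjusted p from 0.0136 to 0.0346). Basal against ML did not pass (0.08 ± 0.23, adjusted p = 0.782).

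Irx3 stood at 151, 179 and 134 CPM in LP cells, at 25.7, 54.0 and 46.8 CPM in basal cells and at 39.5, 211 and 89.7 CPM in ML cells. The LP range lay above the basal range, whereas the ML range covered the whole LP range and overlapped the basal range. Basal against LP was -2.13 ± 0.34 (adjusted p = 0.000414). Basal against ML was -1.23 ± 0.34 (adjusted p = 0.00926) and did not pass without estrus (-0.81, adjusted p = 0.0767) or without diestrus (-1.40, adjusted p = 0.0242). LP against ML did not pass (0.90 ± 0.33, adjusted p = 0.0477), with LP higher in 2 of 3 libraries.

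Irx5 stood at 43.5, 102 and 70.5 CPM in basal, 62.5, 61.6 and 67.0 CPM in LP and 17.1, 52.7 and 32.4 CPM in ML cells. LP exceeded ML without overlap (1.25 ± 0.26, adjusted p = 0.00274) and basal exceeded ML in each library with overlap of the ranges (1.14 ± 0.25, adjusted p = 0.00266). The first did not pass without puberty (adjusted p = 0.019) or diestrus (0.017), and the second did not pass without diestrus (0.0204). Basal and LP cells did not differ past the threshold (-0.10 ± 0.25, adjusted p = 0.766), and basal cells were lower in puberty and higher in both adult libraries.

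In count, 3 of the 10 genes were higher in basal than in LP cells and 5 were higher in LP, where 17.8% and 15.5% of the 10990 genes tested were called in these directions. Against ML cells, 6 were higher in basal cells (background 23.1%) and 2 were higher in ML cells (20.2%). Between the luminal classes, 4 were higher in LP (14.4%) and 1 in ML (13.6%). The genes were named with earlier results of these data known, and no test of these counts was made. Their median log2 fold change was -0.52 for basal against LP, 1.48 for basal against ML and 0.998 for LP against ML, where the medians of all genes were 0.019, 0.022 and -0.003.

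**Figure D2:**
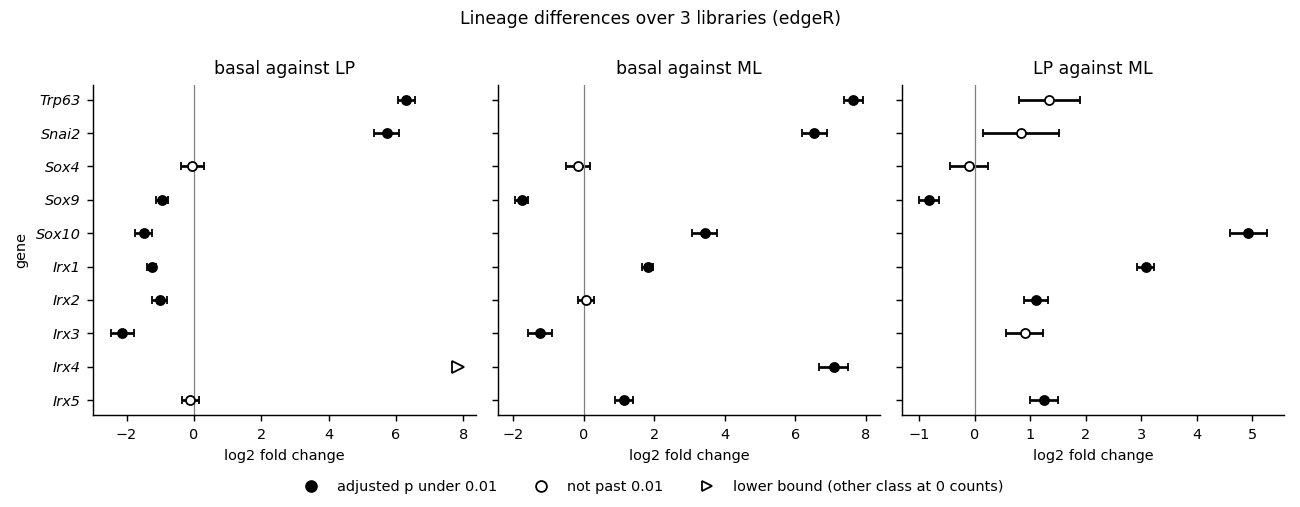
Log2 fold changes between lineages (horizontal axis) for each gene (vertical axis), with bars of 1 SE, from the edgeR fit over 9 sums; filled points passed an adjusted p of 0.01. The open triangle is the lower bound for Irx4, which had 0 counts in LP cells and for which the LP against ML value is not drawn; Sox9, Sox10 and Irx1 passed in all 3 panels.

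Stages were compared within each lineage, to ask how the same genes stood in the growing pubertal duct and at opposite phases of the ovarian cycle. Ratios are log2 of TMM-normalized CPM (trimmed mean of M values within a lineage, pseudocount 1 CPM), which lie between 0.017 and 0.296 above ratios of plain CPM. With 1 library per stage there is no replicate check, and a ratio is called past 2-fold only as a description. In diestrus against estrus, 3 of 23 gene and lineage pairs with at least 20 counts were past 2-fold, in puberty against estrus 7 of 24, and in puberty against diestrus 8 of 24. Of all genes with at least 20 counts, between 7.23% and 12.3% were past 2-fold, by lineage and comparison. The pairs share genes and libraries, and these totals were not tested.

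Between the cycle phases, 0 of 10 genes were past 2-fold in basal cells (9.77% of all genes were), 1 of 7 in LP (11.8%) and 2 of 6 in ML cells (7.30%). Sox4 was higher in diestrus in both luminal classes. Its ratio was 1.10 in LP cells (interval 0.95 to 1.27), from 1186 and 409 counts, and 1.08 in ML cells (0.95 to 1.23), from 1106 and 648 counts. The ML ratio was within 2-fold without TMM, at 0.88. In basal cells the ratio was -0.39 (-0.51 to -0.28). By basal cluster, the levels were 456 CPM in diestrus and 400 in estrus for cluster 1, and 171 and 211 CPM for cluster 5. These directions were opposite, but the intervals overlapped in both clusters. Among cells of LP cluster 2, Sox4 stood at 411 CPM in diestrus and 195 in estrus. ML clusters differed: in cluster 0 the levels were 283 in diestrus and 102 CPM in estrus, but in cluster 6 they were 275 and 368 CPM. Irx3 was lower in diestrus ML cells (-1.02, -1.23 to -0.84; -0.99 with a pseudocount of 5 CPM and -0.98 with Leiden classes), at 122 against 225 CPM in cluster 0 and 84.4 against 181 CPM in cluster 6. Sox10 in basal cells was just under 2-fold higher in diestrus (0.95, 0.58 to 1.43, from 140 and 71 counts). Trp63, Snai2, Irx1, Irx2 and Irx3 in basal cells had intervals that included 0.

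Puberty was compared with each adult phase. Both comparisons use the same puberty library, so they are not independent. In basal cells 2 of 10 genes were past 2-fold against estrus (12.3% of all genes) and 3 of 10 against diestrus (11.1%). Irx1 was lower in puberty, by -1.43 (-1.83 to -1.12) against estrus and -1.46 (-1.85 to -1.14) against diestrus, as was Irx4, by -1.10 (-1.50 to -0.76) and -1.35 (-1.75 to -1.03). The Irx4 ratio against estrus was within 2-fold with a pseudocount of 5 CPM (-0.995) and with the second puberty table (-0.98). In cluster 5, present in all 3 libraries, Irx1 stood at 21.9 CPM in puberty, 90.04 in estrus and 69.8 in diestrus. Irx4 in the same cluster stood at 19.5, 40.9 and 66.2 CPM. In cluster 1 it stood at 57.7 (28.8 to 103), 69.6 and 71.5 CPM, with intervals that overlapped, from 11 counts in puberty. Irx5 was at -0.996 (-1.29 to -0.74) against estrus, at the edge of the 2-fold limit, and -0.60 against diestrus. Sox9 was higher in puberty, by 1.39 (1.18 to 1.62) against diestrus and 0.81 (0.62 to 1.005) against estrus. Pubertal basal cells of cluster 4 had the highest basal Sox9 level, 196 CPM, against 51.9 CPM in diestrus cells of that cluster. In cluster 5 Sox9 stood at 84.3, 62.4 and 45.1 CPM, but in cluster 1 puberty was the lowest, at 89.2, 109 and 106 CPM, with overlapping intervals. Trp63 gave ratios of -0.10 (-0.35 to 0.14) and -0.02 (-0.27 to 0.23), and Snai2 0.47 (0.14 to 0.82) and 0.57 (0.23 to 0.93).

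In LP cells 0 of 7 genes were past 2-fold in puberty against estrus (10.1% of all genes) and 2 of 7 against diestrus (10.3%). Irx1 was lower in puberty, by -0.91 (-1.12 to -0.71) against estrus and -1.11 (-1.30 to -0.94) against diestrus, and stood at 102, 153 and 184 CPM in cluster 2. Sox4 was at 0.03 (-0.13 to 0.19) against estrus and -1.07 (-1.19 to -0.96) against diestrus. Sox10, Irx2, Irx3, Irx5 and Sox9 lay between -0.01 and 0.53 in both comparisons. For Irx3, LP cluster 2 was lower in puberty, at 90.3 CPM against 147 in diestrus. In cluster 8 the levels were 128 and 99.04 CPM, in the other direction but with overlapping intervals. Cluster 3, mostly of puberty, stood at 181 CPM.

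In ML cells 5 of 7 genes were past 2-fold in puberty against estrus (8.01% of all genes) and 3 of 7 against diestrus (7.23%). Irx3 had the largest ratio of any pair, -2.10 (-2.29 to -1.95) against estrus, and -1.07 (-1.30 to -0.88) against diestrus. Its level was between 35.4 and 47.3 CPM in the 3 main ML clusters of puberty, between 181 and 225 CPM in the estrus clusters and between 72.0 and 122 CPM in those of diestrus, so that the stages did not overlap in any cluster. Irx1 was lower in puberty by -1.18 (-1.72 to -0.83) against estrus and -1.15 (-1.71 to -0.76) against diestrus, from 88, 87 and 68 counts; with a pseudocount of 5 CPM these were -0.92 and -0.89, and against estrus the ratio was -0.88 with Leiden classes. Irx5 was at -1.28 (-1.62 to -1.03) and -0.80 (-1.17 to -0.48). Sox9 was higher in puberty, by 1.18 (1.09 to 1.28) against estrus and 1.26 (1.16 to 1.38) against diestrus, and without TMM the first of these was 0.889. Its thinned share of cells was 53.2% in puberty, 32.2% in estrus and 33.7% in diestrus. Sox4 was higher in puberty than in estrus by 1.42 (1.31 to 1.55), and than in diestrus by 0.34 (0.24 to 0.44). Against diestrus the ML clusters differed in direction: Sox4 stood at 608 CPM in puberty and 275 in diestrus in cluster 6, but at 196 and 355 CPM in cluster 7. In cluster 0 it stood at 250 and 283 CPM, with overlapping intervals.

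Over whole classes, Irx1 was lower in puberty than in either adult library in all 3 lineages, as Irx3 and Irx5 were in basal and ML cells. In ML cluster 0 Irx1 stood at 6.98, 22.0 and 36.7 CPM. It stood at 8.25, 13.5 and 13.8 CPM in ML cluster 6, with overlapping intervals. In ML cluster 7 it stood at 7.55 CPM in puberty and 8.64 in diestrus, again with overlapping intervals. The puberty and diestrus intervals of Irx5 also overlapped in ML clusters 6 and 7. Within basal clusters Irx1 and Irx3 were lower in puberty in each cluster compared. However, the puberty interval of Irx3 overlapped an adult interval in clusters 1, 4 and 5, and that of Irx1 in clusters 1 and 4. Basal Irx5 was lower in puberty in cluster 5 (35.9, 62.4 and 63.1 CPM) and not in cluster 1 (121, 116 and 125 CPM). In cluster 4 its levels were 41.3 CPM in puberty and 45.1 in diestrus, with overlapping intervals. Any of Irx1, Irx2, Irx3 and Irx5 was counted in 26.4%, 52.2% and 56.7% of basal cells, in 64.1%, 69.9% and 75.2% of LP cells and in 30.0%, 61.5% and 53.9% of ML cells, although pubertal ML cells were the deepest (median 4699.5 counts, against 4156.5 in estrus and 4339 in diestrus). These shares were not thinned, and LP cells were deeper than basal cells in each library. The second puberty table gave levels within -0.21 to 0.127 (log2) of the first over the 23 pairs of gene and class with at least 50 counts. Cycling cells made up 7.74%, 4.18% and 19.1% of basal cells, and leaving cycling cells out of every class left 3, 7 and 8 pairs past 2-fold in the 3 stage comparisons.

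**Figure D3:**
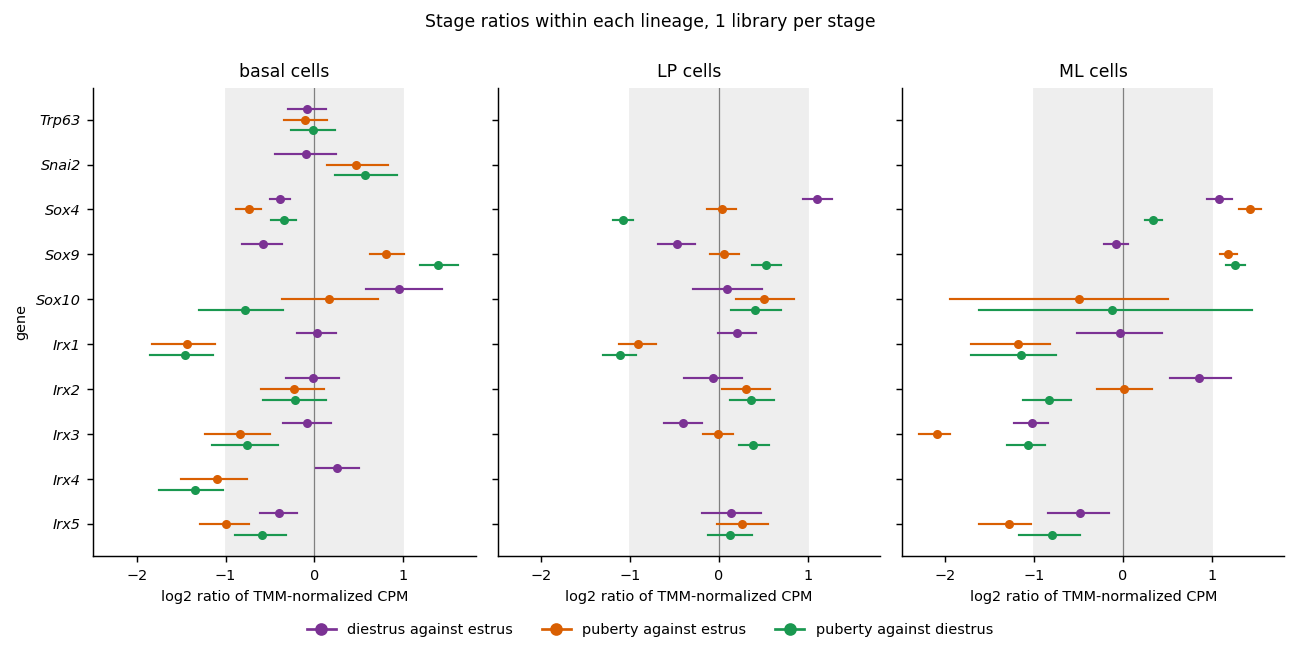
Stage ratios (horizontal axis, log2 of TMM-normalized CPM) of each gene (vertical axis) in basal, LP and ML cells, with 1 library per stage. Lines are exact 95% intervals for counting error, the grey band marks ratios within 2-fold, pairs under 20 counts are left out, and Irx3 in ML cells reaches -2.10 in puberty against estrus.

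**Figure D4:**
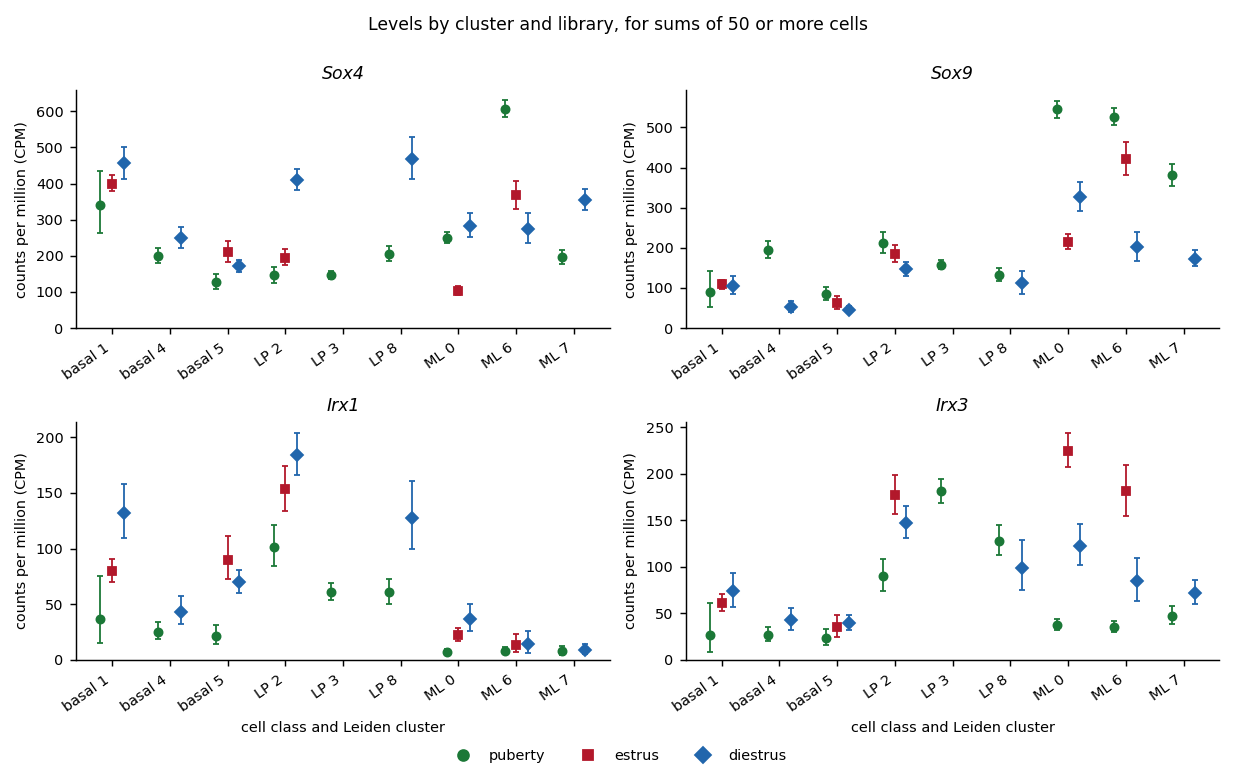
Levels of Sox4, Sox9, Irx1 and Irx3 in CPM (vertical axis, linear, from 0) by class and Leiden cluster (horizontal axis) in each library, for sums of at least 50 cells, with exact 95% Poisson intervals. Irx3 lies lowest in puberty in every ML cluster, and Sox4 differs in order between ML clusters 0 and 6.

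**Figure D5:**
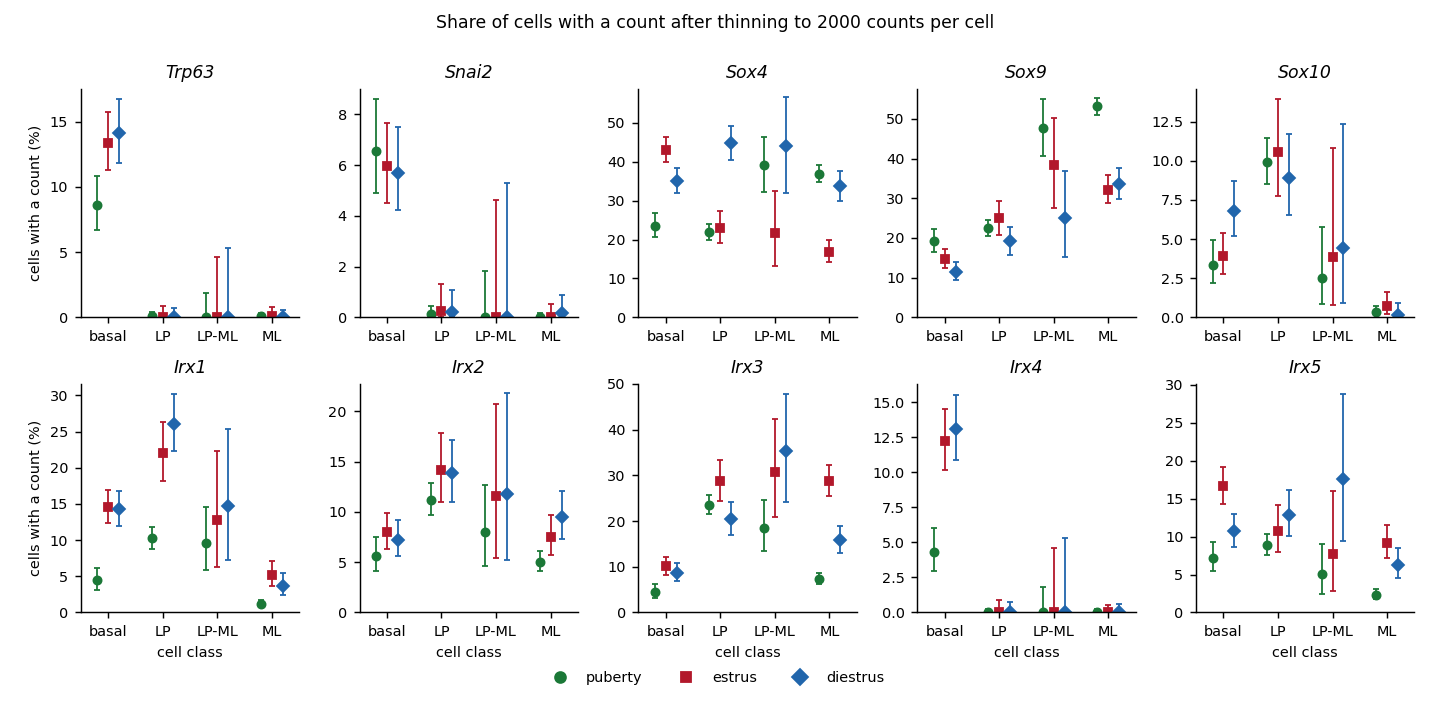
Share of cells with a count (vertical axis, percent) after each cell was thinned to 2000 counts, by class (horizontal axis) and library, with exact binomial 95% intervals. Sox9 was counted in 53.2% of pubertal ML cells, and Trp63, Snai2 and Irx4 in under 1% of LP and ML cells.

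Genes of related function were taken from lists that leave out the 10 genes. Of all genes tested, 17.8% were called higher in basal and 15.5% in LP cells, and 23.1% in basal and 20.2% in ML cells. Between the luminal classes 14.4% were higher in LP and 13.6% in ML cells. The list counts below were not tested, and activity of the factors was not measured. Of 20 known p63 targets, which include hemidesmosome, laminin and integrin genes, 19 were tested. Of these, 17 were higher in basal than in LP cells and 0 lower, and 16 were higher in basal than in ML cells and 0 lower, with median log2 fold changes of 3.52 and 3.13. Pdpn, which encodes the membrane glycoprotein podoplanin, stood at 212, 153 and 206 CPM in basal cells and at 2.85 CPM or less in luminal cells (basal against LP 6.94, adjusted p = 1.06e-08). Col17a1, a hemidesmosome collagen, stood at 78.2, 137 and 62.9 CPM in basal cells (basal against LP 6.61, adjusted p = 1.33e-07). Between LP and ML, 4 targets were higher in each class.

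Of 16 other transcription factors linked to basal cells, 13 were tested, and 9 were higher in basal than in LP cells against 2 lower, and 11 higher than in ML cells against 2 lower. Id4, an inhibitor of basic helix-loop-helix factors, stood at 10.6, 24 and 218 CPM in basal cells (basal against ML 6.82, adjusted p = 2.18e-08). Those that went the other way were Bcl11a (basal against LP -1.63, adjusted p = 0.00371) and Nfib (-0.53, adjusted p = 0.00574), higher in LP cells, and Tbx3 and Meis1, higher in ML than in basal cells (-1.78 and -2.14, adjusted p = 0.000564 and 6.70e-06).

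Of 12 other EMT factors only 4 were tested, and 1 passed in each direction for basal against LP. Tcf4, a basic helix-loop-helix factor, was higher in basal cells (1.25, adjusted p = 0.000302) and the forkhead gene Foxc1 was higher in LP cells (-2.16, adjusted p = 0.00292). Snai1, the nearest relative of Snai2, did not pass in any comparison (basal against LP -0.34, adjusted p = 0.628). Of 15 epithelial junction genes, all were tested, and 13 were higher in LP and 11 in ML than in basal cells. Claudin Cldn4 stood at 18.7, 16.6 and 19.6 CPM in basal and 944, 1090 and 671 CPM in ML cells. Dsp, which encodes the desmosome protein desmoplakin, was the 1 junction gene higher in basal than in LP or ML cells (against LP 2.25, adjusted p = 1.55e-05).

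Of the 18 other SOX and IRX genes listed, 4 were tested (Sox5, Sox8, Sox12 and Sox13). Sox8, a relative of Sox9 and Sox10 in the SOXE group, was higher in basal than in LP cells, at 6.94, 16.4 and 16.5 CPM against 2.39, 2.43 and 3.56 CPM (1.96, adjusted p = 0.000708), and had a count in ML cells in only 1 library. Sox5 stood at 4.65, 4.85 and 7.13 CPM in LP and at 0.289 CPM or less in ML cells. Sox12 went the other way, at 5.36, 5.35 and 6.65 CPM in ML and 1.13, 0.970 and 3.21 CPM in LP cells (LP against ML -1.68, adjusted p = 0.00379), and Sox13 passed in no comparison.

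Of 12 known SOX10 targets, 5 were tested, with 3 higher in basal and 2 in LP cells. Erbb3, an EGF receptor family gene, stood at 40.4, 31.9 and 32.4 CPM in ML and 14.7, 25.7 and 17.5 CPM in LP cells but below 1 CPM in basal cells (basal against LP -4.90, adjusted p = 1.87e-06). Against ML cells, 2 targets were higher and 1 lower in basal cells, and 1 was higher and 0 lower in LP cells. Col9a3, a collagen gene, was low in ML cells, at 3.93, 1.87 and 1.74 CPM, against 187, 118 and 116 CPM in basal and 47.6, 51.4 and 48.8 CPM in LP cells (basal against ML 5.65 and LP against ML 4.29, adjusted p = 1.11e-08 and 1.81e-07). Of the cartilage SOX9 targets in the files, 3 of 9 were tested, and all were higher in basal than in ML cells. Col9a2, a chain of type IX collagen, stood at 209, 164 and 125 CPM in basal, 20.3, 18.9 and 22.8 CPM in LP and 1.25, 0.803 and 0.579 CPM in ML cells. This lineage order is the reverse of that of Sox9. Col9a1 stood at 126, 38.8 and 37.2 CPM in basal and 176, 98.9 and 43.5 CPM in LP cells, against at most 2.41 CPM in ML cells (LP against ML 6.26, adjusted p = 2.16e-07).

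Across the 9 sums of class and library, which share libraries and lineages, the genes most like each of the 10 were sought among 5053 genes with a mean of at least 20 CPM, by Pearson's r of log2(CPM + 1). Trp63 was most like the smooth muscle genes Tagln (r = 0.997) and Acta2 (0.996), both of which are basal class markers, and Snai2 most like Il17b (0.998). Irx4 was most like Cpne8 (0.993). Sox10 was most like Egln3 (0.985) and the LP class marker Lcn2 (0.980), Irx1 like Ntan1 (0.994) and Sox9 like Card19 (0.954). Irx2 was most like Nfkbiz (0.912), Irx3 like Glb1 (0.950), Irx5 like Ing2 (0.930) and Sox4 like Ube2e3 (0.830). Among the 10 genes themselves, Trp63 and Snai2 (r = 0.992), Trp63 and Irx4 (0.984) and Snai2 and Irx4 (0.977) were most alike, followed by Sox10 and Irx1 (0.888).

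Counts of pairs in the same cell were set beside the number given by the product of both shares within 5 groups of cells of like depth. For Irx3 and Irx5, neighbours on chromosome 8, the count exceeded that number in all 9 sums, as in estrus ML cells with 100 cells against 73.2, and in pubertal LP cells with 160 against 128. The ratio ranged from 1.10 to 1.37. For Irx1 and Irx2 in basal cells the counts were 10, 54 and 52 cells against 5.99, 40.8 and 44.2, but in estrus ML cells they were 9 against 11.1. The basal ratios were 1.42, 1.16 and 0.994 for Irx1 and Irx4, and 1.66, 1.14 and 1.03 for Irx2 and Irx4. An excess was not confined to neighbours. For Sox4 and Sox9, on different chromosomes, the ratios were 1.18, 1.05 and 1.09 in basal, 0.996, 1.04 and 0.970 in LP and 1.07, 1.12 and 1.10 in ML cells. For Trp63 and Snai2 in basal cells they were 21, 30 and 37 against 17.9, 32.8 and 38.3, and for Sox9 and Sox10 in LP cells 123, 43 and 48 against 125, 39.8 and 52.0. These counts are descriptions of sparse data, and none was tested.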

How the data were processed

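Single mammary epithelial cells were profiled by droplet RNA sequencing in 1 library per stage. The authors made the tables with Cell Ranger 2.0 on the mm10 build, per the labels, and each deposited value is a raw count of molecules per gene and cell barcode. The cell-calling cutoff and the use of read strand were not given in the sources used here. The members and lists were chosen with earlier results of these data known. The second puberty table holds the cells of the first, so that only the first entered the main fits, and 3 libraries remained. Intervals and limits from counts cover counting error only.

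Each cell was scored by its mean z-score of log-normalized expression over 10 markers per lineage, and was named where the highest score exceeded the next by at least 0.5. Barcodes with at least 3 of 5 markers of another cell type, and more counts of these than of Krt5, Krt14, Krt8 and Krt18, were set aside (47 barcodes). No cells were removed for quality or as doublets in the main fits. Scrublet called 2.97%, 1.28% and 1.15% of cells in puberty, estrus and diestrus as doublets, and these were left out in an alternative. Markers of other cell types were checked by class: immune and melanocyte lists summed to at most 2.14 CPM in basal, LP and ML cells of any library, Schwann markers to at most 17.5 CPM and endothelial markers to at most 21.9 CPM, with Cdh5 and Emcn at 0 in basal, LP and ML cells. Fibroblast markers summed to between 245 and 279 CPM in basal, at most 15.5 CPM in LP and between 245 and 709 CPM in ML cells, where Dcn was the 1 fibroblast gene with counts in diestrus. Their part in the results was not tested. Of basal cells, 41 had no count for Krt5, Krt14 or Krt17. Leiden cluster 10 held 4, 25 and 8 of the cells named basal in puberty, estrus and diestrus. Krt14 was counted in only 8.9% of the 45 cells of that cluster, and Sparcl1 and Des were among its leading genes. The basal name is therefore uncertain for these cells, and what they are was not tested.

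Counts were added up by class and library (9 sums) and fitted with edgeR 4.0.16 in R 4.3.3 (TMM, filterByExpr, quasi-likelihood F test) with the library as a block, and p-values were adjusted over all 10990 genes by the Benjamini-Hochberg method with a threshold of 0.01. SE was obtained from the fold change and its F statistic. The 3 sums of a library come from the same pool of mice, which is where the pairing comes from. The steps were run on simulated counts in which every gene had the same spread and libraries differed only in depth. Such counts hold no lineage difference that varies between libraries, so they do not test the calls against that variation. Stage ratios used TMM factors within a lineage and a pseudocount of 1 CPM, with exact conditional binomial intervals. Ratios with at least 20 counts were read against 2-fold. For shares, cells under 2000 counts were left out and others thinned to 2000. All 10 members were described. From each list the 2 genes with the largest change in each direction that passed could be named, and for each member the 3 genes most like it. Snai1 was named after its values were seen. DESeq2 1.42.0, other scalings, filters, class rules and libraries left out served as alternatives. Gene positions came from GENCODE M21 and sequences from RefSeq (GRCm38.p6).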

Additional observations from a re-analysis of the deposited data

Results flagged for a closer look

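Sox4 and Irx3 had a stage ratio past 2-fold in at least 1 lineage and a ratio in the opposite direction in another, each with a counting interval that left out 0. Irx2 and Sox10 also had opposite directions in puberty against diestrus, with intervals that left out 0 but no ratio past 2-fold. Irx2 was at 0.364 in LP and -0.835 in ML cells, and Sox10 at 0.411 in LP and -0.785 in basal cells. With 1 library per stage, the difference between lineages was not tested. For Sox4 in diestrus against estrus the log2 ratio was 1.10 in LP and 1.08 in ML cells but -0.39 in basal cells. For Sox4 in puberty against estrus it was 1.42 in ML and -0.74 in basal cells, and in puberty against diestrus it was -1.07 in LP and 0.34 in ML cells. For Irx3 in puberty against diestrus it was -1.07 in ML and 0.39 in LP cells. The clusters that hold each class differed between these libraries, and the part of cluster makeup in these ratios was not tested. Within clusters several directions were not kept, some of them with overlapping intervals. In basal cluster 1 Sox4 stood at 341, 400 and 456 CPM in puberty, estrus and diestrus, with diestrus the highest but all intervals overlapping. In basal cluster 5 it stood at 128, 211 and 171 CPM, with overlapping intervals in estrus and diestrus. In ML cells Sox4 was lower in puberty than in diestrus in cluster 7 (196 and 355 CPM) and higher in cluster 6 (608 and 275 CPM). In ML cluster 0 it was 250 and 283 CPM, with overlapping intervals. Irx3 in LP cluster 2, which held 81.2% of diestrus LP cells, was lower in puberty than in diestrus (90.3 and 147 CPM), as in ML cells. In LP cluster 8 it was 128 and 99.04 CPM, with overlapping intervals.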

How the results depend on the processing

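The 10 genes gave 21 lineage calls at an adjusted p of 0.01. Without the replicate block for library, 7 of the 21 were lost, all of them in the same direction: the members called between LP and ML went from 5 to 2, and the genes called went from 3660 to 2354 for basal against LP, from 4765 to 3162 for basal against ML and from 3072 to 1635 for LP against ML. Leaving out 1 library lost 4 calls (puberty), 4 (estrus) or 5 (diestrus), and the members called between LP and ML ranged from 2 to 4 and the genes called from 1794 to 2235. The lost calls were of Sox9, Irx1, Irx2, Irx3 and Irx5. The Leiden clusters and the summed puberty tables each lost the call of Irx3 for basal against ML (adjusted p = 0.0111 and 0.0104), and the stricter margin lost that of Sox9 for basal against LP (0.0107). In 12 of 440 values the sign differed, none of them past the threshold in the main fit or in the alternative. With a stricter margin, Sox4 was at 0.065 for basal against LP and 0.004 for basal against ML. Without the replicate block Irx5 was at 0.009 for basal against LP, with a stricter cell filter Irx2 was at -0.017 for basal against ML, with the second puberty table Snai2 was at -0.092 for LP against ML, and with Leiden clusters Irx4 was at 0.149 for LP against ML. With 1 library left out, Sox4 ranged from -0.514 to 0.345 for basal against LP, from -0.805 to 0.337 for basal against ML and from -0.406 to 0.4 for LP against ML, Irx5 from -0.378 to 0.252 for basal against LP and Irx2 from -0.122 to 0.345 for basal against ML. The cause of these changes was not tested. Of single stage ratios past 2-fold, 6 were within 2-fold under an alternative: Sox4 diestrus against estrus (0.88) and Sox9 puberty against estrus (0.889) in ML cells without TMM, Irx1 in puberty against either adult phase and Irx3 diestrus against estrus in ML cells, and Irx4 puberty against estrus in basal cells. The numbers of pairs past 2-fold between stages stayed within 1.5 times under every alternative run, including the leaving out of basal cells without keratin counts, which was chosen after seeing the data. No library could be left out of a stage comparison, and genes near 20 counts carry the widest intervals.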
